A study of Mus musculus with 7 samples.

Results

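The genes described here are 30 genes of neutrophils and their precursors, measured by RNA sequencing in 7 mouse fetal liver libraries. They were chosen by name: granule proteins, transcription factors of the granulocyte lineage, subunits of the NADPH oxidase, surface receptors, and other proteins of these cells. They are 30 of the 39017 genes in the count files, all 30 were found by symbol, and they lie on 12 chromosomes. For the descriptions they were split by role into 4 primary granule genes, 8 late granule genes, 3 transcription factors, 3 oxidase subunits, 5 receptors and surface proteins, and 7 other proteins.

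Neutrophils are made from myeloblasts through promyelocytes and myelocytes. Promyelocytes transcribe the primary (azurophil) granule genes, which encode myeloperoxidase and the serine proteases. Myelocytes and later cells transcribe the specific and gelatinase granule genes, called late granule genes here. C/EBP alpha directs entry into the lineage, and C/EBP epsilon and Gfi1 act at the later steps. In the mouse embryo at this stage, the liver is the main site of blood formation, most of its blood cells are erythroid, and granulocyte precursors are few.

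All embryos were of the C57BL/6 strain at stage E12.5, and RNA came from livers dispersed to single cells. Taf10 encodes a protein shared by the transcription complexes TFIID and SAGA. The 2 TAF10KO livers had Taf10 flanked by lox sites, and EpoCre, a recombinase expressed from the erythropoietin receptor locus and meant to act in erythroid cells. Their titles read lox/lox, but the series text has a lox allele over a KO allele. The 3 TAF10HET livers also carried EpoCre: replicate 1 with a lox and a wt allele, replicates 2 and 3 with a wt and a ko allele. The 2 WT livers were lox/lox without Cre. Each title also holds a code in the form of a date, and what was done on that date is not stated. The second code covers TAF10KO replicate 2, TAF10HET replicates 2 and 3 and WT replicate 2. The first covers replicate 1 of each genotype, so allele type within TAF10HET and date code cannot be told apart.

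Reads assigned to genes numbered 18008391 to 43401474 per library. In CPM, reads scaled to a common library size, the targeted gene Taf10 was at 37.8 and 43.8 in the TAF10KO livers, 63.0 to 78.0 in the TAF10HET livers, and 71.9 and 96.4 in the WT livers. Libraries stood apart by date code: principal component 1, with 63.2% of the variance, separated the 2 codes. The coefficient of variation between libraries was 13.4% with the date code as a term and 33.9% with group alone. Tests below carry the date code as a term. "Rose" and "fell" mean an adjusted p under 0.05 in edgeR's quasi-likelihood test, over all 15800 genes tested. Labels do not say whether livers were pooled or shared a litter, so the p-values measure the spread between these libraries.

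Of the 30 genes, 29 had enough reads to be tested. Chil3, a chitinase-like protein of late granules, was the exception, with 1 and 7 reads in TAF10KO replicates 1 and 2, 1, 3 and 2 reads in TAF10HET replicates 1 to 3, and 1 read in each WT library. Each test was therefore made on genes detected in this tissue, and the counts below are of 29.

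Levels between genes are compared in TPM, which divides reads by exon length before scaling. S100a9 and S100a8, the subunits of calprotectin, a calcium-binding protein abundant in neutrophil cytosol, were the most abundant, with mean levels of 741 and 266 TPM over the 7 libraries. Myeloperoxidase, Mpo, followed at 86.4 TPM, beside the late granule genes Ngp, neutrophilic granule protein, at 83.4 TPM and Camp, the mouse cathelicidin, at 69.8 TPM. Transcripts of both granule stages were therefore present in these livers. Srgn, the proteoglycan core that packs granule contents and that megakaryocytes and mast cells also use, stood at 45.3 TPM. The protease genes were spread more widely: Prtn3, proteinase 3, at 37.6 TPM, Elane, neutrophil elastase, at 12.6 TPM and Ctsg, cathepsin G, at 7.42 TPM. Of the transcription factors, Cebpa was at 25.9 TPM, Cebpe at 7.97 TPM and Gfi1 at 1.84 TPM. The lowest of the tested genes was Padi4, which citrullinates histones during formation of neutrophil extracellular traps, at 0.74 TPM.

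**Figure D1:**
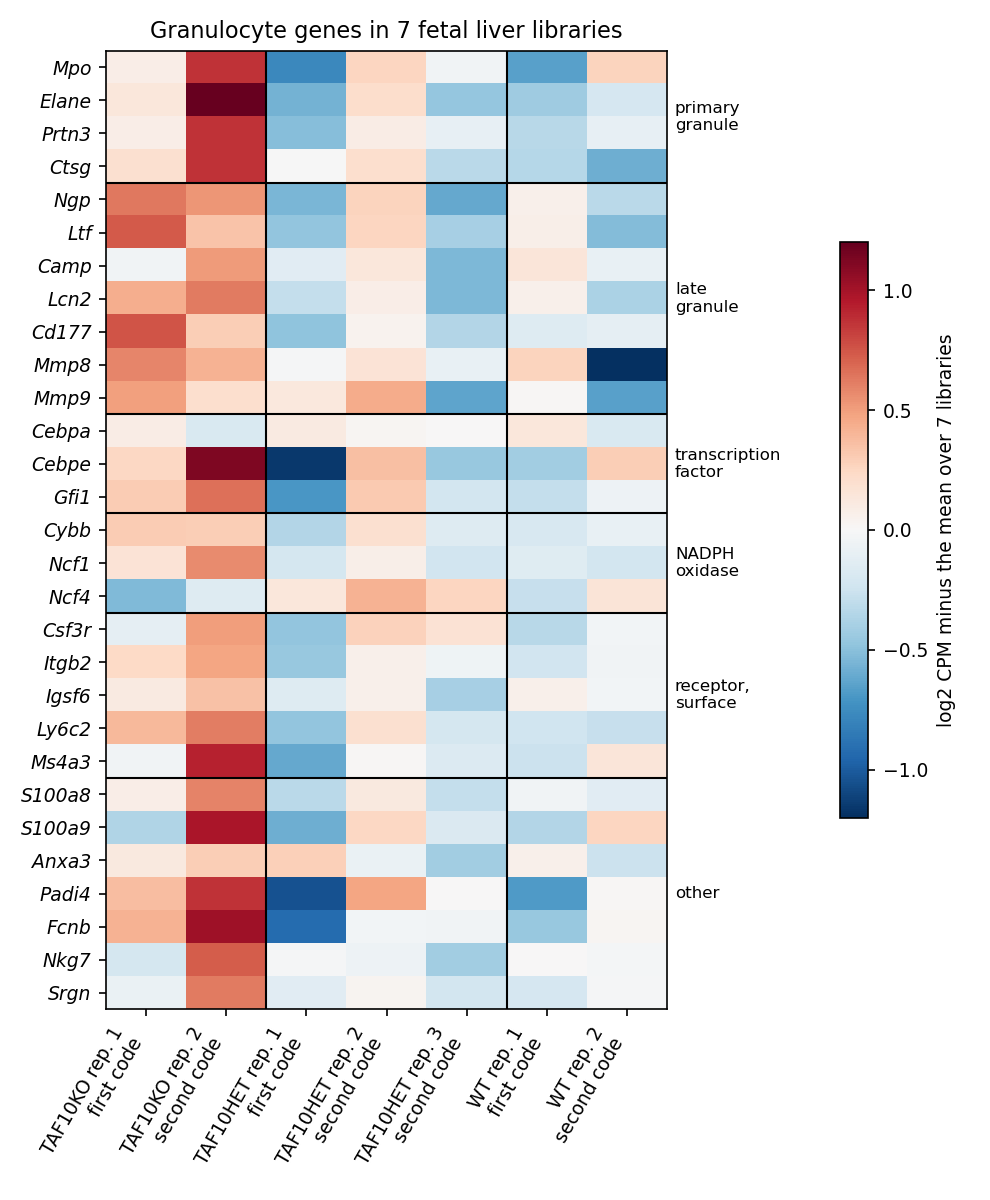
Levels of the 29 tested genes (rows, grouped by role) in the 7 libraries (columns, TAF10KO, TAF10HET, WT, with the date code of each), as log2 CPM minus the gene's mean over all libraries; red is above the mean and blue below it. Of the 29 genes, 21 were highest in TAF10KO replicate 2 and 6 in TAF10KO replicate 1, and 15 were lowest in TAF10HET replicate 1. The same counts were not made over all genes.

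Most of the genes peaked in a TAF10KO liver, as the heat map of log2 CPM by library shows. TAF10KO replicate 2 had the highest level of 21 of the 29 genes and TAF10KO replicate 1 that of 6. The 2 exceptions were Ncf4, highest in TAF10HET replicate 2, and Cebpa, highest in WT replicate 1. TAF10HET replicate 1 was lowest for 15 genes, TAF10HET replicate 3 for 8 and WT replicate 2 for 4. The same counts were not made over all genes, so these cannot be read as a trait of the 29.

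The start-site sequences of the granule genes were read next, because these genes are transcribed at successive stages and are compared by stage below. The 250 bases before the RefSeq start on GRCm38.p6 were searched on both strands for 4 short motifs: PU.1 as GAGGAAG, C/EBP as TTGCNNAA, MYB as TAACNG and RUNX as TGTGGT. A window was held for 25 of the 30 genes. The primary granule genes follow, 5′ to 3′ on the gene's strand, with every match to any of the 4 motifs in capitals.
Mpo: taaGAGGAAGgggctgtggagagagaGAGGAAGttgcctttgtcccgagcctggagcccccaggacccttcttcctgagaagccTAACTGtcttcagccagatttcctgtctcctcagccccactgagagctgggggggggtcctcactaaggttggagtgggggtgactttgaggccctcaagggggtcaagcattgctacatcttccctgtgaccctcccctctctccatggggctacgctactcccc
Prtn3: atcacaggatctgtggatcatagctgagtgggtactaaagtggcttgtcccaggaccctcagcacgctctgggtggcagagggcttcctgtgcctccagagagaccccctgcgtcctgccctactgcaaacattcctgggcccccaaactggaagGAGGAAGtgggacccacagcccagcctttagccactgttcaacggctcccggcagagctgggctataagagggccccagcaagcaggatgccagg
Elane: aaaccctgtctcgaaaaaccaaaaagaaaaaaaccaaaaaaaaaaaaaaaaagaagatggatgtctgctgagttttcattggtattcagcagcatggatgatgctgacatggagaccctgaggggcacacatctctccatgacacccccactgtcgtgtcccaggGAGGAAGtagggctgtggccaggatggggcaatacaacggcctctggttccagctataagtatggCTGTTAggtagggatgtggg
Ctsg: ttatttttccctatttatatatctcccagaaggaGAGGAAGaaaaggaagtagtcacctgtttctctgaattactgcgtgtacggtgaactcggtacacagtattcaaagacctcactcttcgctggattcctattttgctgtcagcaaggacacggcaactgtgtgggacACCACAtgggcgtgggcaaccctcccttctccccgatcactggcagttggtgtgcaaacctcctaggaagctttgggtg
These windows are Mpo (chr11:87793534-87793783, plus strand), Prtn3 (chr10:79879417-79879666, plus strand), Elane (chr10:79886062-79886311, plus strand) and Ctsg (chr14:56102575-56102824, minus strand). GAGGAAG was in all 4, with 2 copies in Mpo, and the C/EBP letters were in none. TAACNG was in Mpo and, on the other strand, in Elane, and TGTGGT was in Ctsg, on the other strand.

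The late granule genes Ltf (lactoferrin), Ngp and Lcn2 and the gene Fcnb, which encodes ficolin B, a lectin of the complement system made by myeloid cells, are printed the same way.
Ltf: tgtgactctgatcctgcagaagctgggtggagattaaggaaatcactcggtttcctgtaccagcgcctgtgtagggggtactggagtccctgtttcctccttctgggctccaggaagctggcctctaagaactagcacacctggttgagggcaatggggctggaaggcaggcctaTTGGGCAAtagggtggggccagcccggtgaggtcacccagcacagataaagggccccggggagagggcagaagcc
Ngp: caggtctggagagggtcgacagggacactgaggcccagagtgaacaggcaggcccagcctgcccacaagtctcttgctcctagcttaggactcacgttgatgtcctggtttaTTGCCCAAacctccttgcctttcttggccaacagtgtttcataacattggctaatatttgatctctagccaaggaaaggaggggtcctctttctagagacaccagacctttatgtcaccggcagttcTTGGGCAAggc
Lcn2: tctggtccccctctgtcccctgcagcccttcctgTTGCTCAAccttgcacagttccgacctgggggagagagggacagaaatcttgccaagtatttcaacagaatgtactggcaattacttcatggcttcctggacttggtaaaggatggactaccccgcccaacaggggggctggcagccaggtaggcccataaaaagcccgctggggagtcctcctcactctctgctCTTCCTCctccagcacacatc
Fcnb: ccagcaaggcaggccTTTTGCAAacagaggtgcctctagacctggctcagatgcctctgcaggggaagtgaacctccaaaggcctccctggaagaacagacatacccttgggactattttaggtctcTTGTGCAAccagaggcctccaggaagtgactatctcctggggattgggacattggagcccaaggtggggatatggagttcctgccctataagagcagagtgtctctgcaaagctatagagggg
These windows are Ltf (chr9:111019042-111019291, plus strand), Ngp (chr9:110419558-110419807, plus strand), Lcn2 (chr2:32387740-32387989, minus strand) and Fcnb (chr2:28084879-28085128, minus strand). The C/EBP letters were in all 4, with 2 copies each in Ngp and Fcnb. They lay on the other strand in Ltf, in both copies of Fcnb and in the Ngp copy nearer the start. GAGGAAG was in Lcn2, on the other strand. Of the 7 late granule genes with a window, 4 held TTGCNNAA (Ltf, Ngp, Lcn2 and Mmp8) and 2 held GAGGAAG (Lcn2 and Mmp8). Of the 25 genes with a window, 9 held the PU.1 letters, 7 the C/EBP letters, 3 the MYB letters and 5 the RUNX letters. Some genes have several windows (28 windows in all), and only the first window listed for each gene was searched for these counts. Counted per window and not per gene, among all 32851 windows of this length GAGGAAG was found in 10.6%, TTGCNNAA in 9.56%, TAACNG in 19.8% and TGTGGT in 14.0%. A match describes the letters and is not a bound site. The annotated gene start of GENCODE M21 lies inside the printed window for Mpo, Elane, Ltf, Ngp and Fcnb, so part of those windows can be transcribed. The windows of Prtn3 and Lcn2 lie wholly inside the annotated gene, so they can be transcribed throughout.

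TAF10KO against TAF10HET sets livers with the intended erythroid deletion of Taf10 against livers with an intact allele, and both groups carry EpoCre. The groups also differ in the wt, lox and ko alleles that they carry, as given above. The alleles carried and the erythroid deletion therefore cannot be told apart. In this comparison 4 of the 29 genes rose and 0 fell: Mpo and Prtn3 of the primary granules, Itgb2, the integrin beta chain of leukocytes, and Fcnb. Those 4 are 13.8% of the 29. Of all 15800 genes, 1.61% were called, 1.15% higher and 0.456% lower. In bulk RNA, more cells of a type and more RNA per cell cannot be told apart.

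Mpo (ENSMUSG00000009350, chromosome 11, 87793581 to 87804413), the peroxidase that forms hypochlorous acid, had 116 and 199 CPM in TAF10KO replicates 1 and 2, 63.7, 130.2 and 106 CPM in TAF10HET replicates 1 to 3, and 69.7 and 130.9 CPM in WT replicates 1 and 2. TAF10KO was the highest genotype within each date code, while over both codes TAF10KO replicate 1 lay below TAF10HET replicate 2 and WT replicate 2. The log2 fold change of TAF10KO from TAF10HET was 0.80 (SE 0.099, edgeR adjusted p = 0.0162).

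Prtn3 (ENSMUSG00000057729, chromosome 10, 79874476 to 79883174) had 25.8 and 44.6 CPM in TAF10KO, 17.2, 26.0 and 22.9 CPM in TAF10HET, and 19.4 and 22.8 CPM in WT. TAF10KO replicate 2 was far above the other 6 libraries, and TAF10KO replicate 1 lay level with TAF10HET replicate 2. The log2 fold change was 0.74 (SE 0.130, edgeR adjusted p = 0.0423), and 0.47 without TAF10KO replicate 2. Prtn3 shares 9.18% of its exon bases with Plppr3 on the opposite strand, which stood at 10.3 to 17.3 CPM, and Mpo shares 15.0% with Gm11505, which had 8 reads over all libraries. Whether counting used strand is not given in the sources used here, so reads in the shared bases of Prtn3 are uncertain.

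Fcnb (ENSMUSG00000026835, chromosome 2, 28076378 to 28084885) showed the largest fold of the 4. Its levels were 8.85 and 13.4 CPM in TAF10KO, 3.52, 6.49 and 6.45 CPM in TAF10HET, and 4.84 and 6.77 CPM in WT. Both TAF10KO libraries lay above the other 5, and the log2 fold change from TAF10HET was 1.14 (SE 0.142, edgeR adjusted p = 0.0162).

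Itgb2 (ENSMUSG00000000290, chromosome 10, 77530252 to 77565708) pairs with several alpha chains to bind endothelium and complement. It was at 30.2 and 35.6 CPM in TAF10KO, 18.6, 26.6 and 24.7 CPM in TAF10HET, and 21.8 and 24.8 CPM in WT, with no overlap between TAF10KO and the other libraries. Its log2 fold change from TAF10HET was 0.55 (SE 0.099, edgeR adjusted p = 0.0451).

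**Figure D2:**
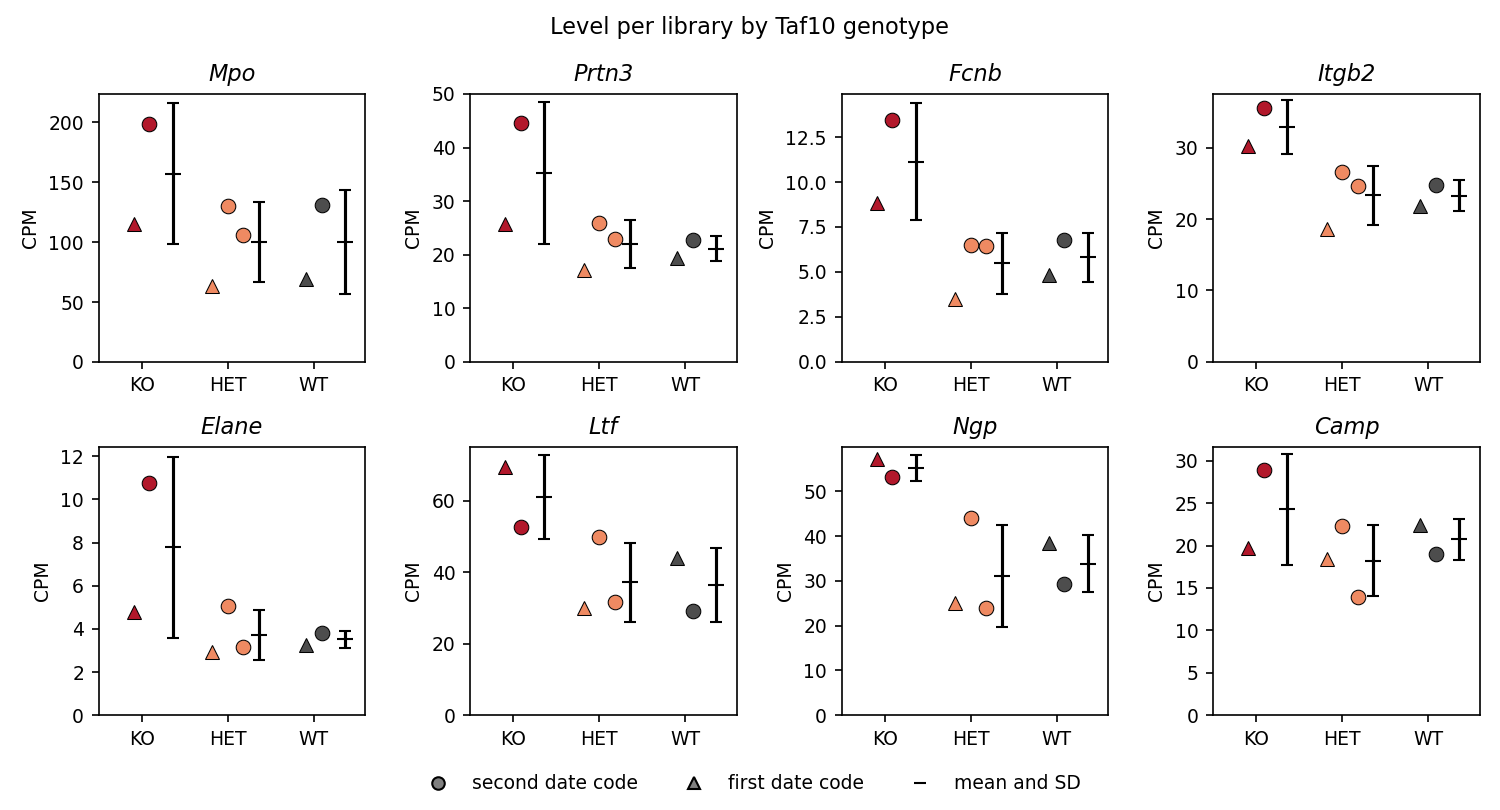
CPM of 8 genes in each library by genotype (KO, HET and WT stand for TAF10KO, TAF10HET and WT), with circles for the second date code, triangles for the first, and a black bar for the mean and SD of each genotype; each axis starts at 0. Both TAF10KO points of Fcnb (8.85 and 13.4 CPM) and of Itgb2 (30.2 and 35.6 CPM) stand above all other libraries, and those of Mpo do so only within each date code.

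The other 25 tested genes did not pass the threshold, though most lay on the same side. In TAF10KO against TAF10HET, 27 of the 29 log2 fold changes were above 0, with a median of 0.60, beside a median of 0.003 and 50.5% above 0 over all genes. The primary granule genes had a median of 0.77 and the late granule genes 0.67. In 25 of 29 genes TAF10KO was higher on both date codes, beside 27.1% of all genes. TAF10KO lay wholly above TAF10HET in 11 genes (10.3% of all genes) and wholly below in 1, Ncf4 (9.77% of all genes). The same libraries enter every gene, so these counts are not independent of each other.

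The 2 genes below 0 belong to different roles. Ncf4, the p40 subunit of the oxidase, was at 9.63 and 12.4 CPM in TAF10KO, 15.3, 18.5 and 16.6 CPM in TAF10HET, and 11.4 and 15.4 CPM in WT. The other oxidase subunits went the other way: Cybb, the membrane subunit gp91phox, stood at 21.7 and 21.6 CPM in TAF10KO, 13.8, 20.1 and 15.8 CPM in TAF10HET, and 15.3 and 16.5 CPM in WT. Ncf1, the p47 subunit, had 17.3 and 23.0 CPM in TAF10KO, 13.2 to 16.3 CPM in TAF10HET, and 14.0 and 13.3 CPM in WT. Neither gene overlapped between TAF10KO and the other libraries, and no subunit passed the test. Ncf1 shares 11.1% of its exon bases with Gtf2ird2 on the opposite strand, at 8.34 to 10.6 CPM. Cebpa, which hepatocytes also express, varied over 1.25 times between libraries, with 28.4 and 23.5 CPM in TAF10KO, 28.8, 27.1 and 26.7 CPM in TAF10HET, and 29.3 and 23.5 CPM in WT.

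The later transcription factors lay higher in TAF10KO without passing. Cebpe, which drives specific granule formation, was at 4.10 and 7.48 CPM in TAF10KO, 1.55, 4.44 and 2.52 CPM in TAF10HET, and 2.59 and 4.22 CPM in WT. Its fitted log2 fold change from TAF10HET, 1.17, was the largest of all 29. Gfi1, a zinc finger repressor, had 2.69 and 3.44 CPM in TAF10KO, 1.34 to 2.70 CPM in TAF10HET, and 1.78 and 2.09 CPM in WT. For both genes a TAF10HET library overlapped the TAF10KO range.

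Of the late granule genes, Ltf, Ngp and Lcn2 were highest in the 2 TAF10KO libraries, without passing the test. Ltf stood at 69.4 and 52.8 CPM in TAF10KO, 30.1, 49.8 and 31.6 CPM in TAF10HET, and 43.9 and 29.1 CPM in WT. Ngp was at 57.2 and 53.1 CPM in TAF10KO, 25.1, 44.2 and 24.0 CPM in TAF10HET, and 38.4 and 29.3 CPM in WT. In both genes each TAF10KO library was above the other 5, while TAF10HET replicate 2 stood apart from the other TAF10HET livers. Lcn2, the siderophore-binding lipocalin, had 22.4 and 25.5 CPM in TAF10KO, 11.4 to 17.5 CPM in TAF10HET, and 17.3 and 12.8 CPM in WT. Camp overlapped, with 19.7 and 28.9 CPM in TAF10KO, 13.9 to 22.3 CPM in TAF10HET, and 22.4 and 19.0 CPM in WT. The collagenase Mmp8 stood at 4.78 and 4.25 CPM in TAF10KO, 2.99 to 3.55 CPM in TAF10HET, and 3.82 and 1.25 CPM in WT. The surface glycoprotein Cd177 had 3.28 and 2.39 CPM in TAF10KO, 1.40 to 2.01 CPM in TAF10HET, and 1.75 and 1.81 CPM in WT. Both genes were likewise highest in the TAF10KO libraries, without passing the test. The gelatinase Mmp9 overlapped, with 4.61 and 3.76 CPM in TAF10KO, 2.11 to 4.44 CPM in TAF10HET, and 3.31 and 2.09 CPM in WT.

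The remaining surface and cytosolic genes ranged widely in level. Csf3r, the G-CSF receptor, was at 8.41 and 12.8 CPM in TAF10KO, 6.51 to 10.9 CPM in TAF10HET, and 7.17 and 8.81 CPM in WT. Ms4a3, a membrane protein of granulocyte and monocyte progenitors, had 3.39 and 6.63 CPM in TAF10KO, 2.27 to 3.52 CPM in TAF10HET, and 2.91 and 3.85 CPM in WT. In both, TAF10KO replicate 1 lay within the range of the other libraries and TAF10KO replicate 2 above it. Igsf6, an immunoglobulin-family protein of myeloid cells, was at 13.2 and 15.6 CPM in TAF10KO, 9.26 to 12.7 CPM in TAF10HET, and 12.7 and 12.0 CPM in WT. Ly6c2, a surface antigen of monocytes and granulocytes with near copies in the genome, was at 1.68 and 1.97 CPM in TAF10KO, 0.93 to 1.47 CPM in TAF10HET, and 1.09 and 1.07 CPM in WT. Both were highest in the TAF10KO libraries. S100a8 was at 74.2 and 106.6 CPM in TAF10KO, 56.3 to 76.1 CPM in TAF10HET, and 68.5 and 63.9 CPM in WT. Srgn had 36.4 and 59.2 CPM in TAF10KO, 33.1 to 39.3 CPM in TAF10HET, and 33.4 and 38.0 CPM in WT. Elane, of the primary granules, was at 4.80 and 10.7 CPM in TAF10KO, 2.95 to 5.06 CPM in TAF10HET, and 3.24 and 3.80 CPM in WT. For these 3 genes TAF10KO replicate 2 stood highest and TAF10KO replicate 1 overlapped TAF10HET. Ctsg was at 3.26 and 5.21 CPM in TAF10KO, 2.29 to 3.28 CPM in TAF10HET, and 2.26 and 1.90 CPM in WT. Anxa3, a phospholipid-binding annexin, was at 14.7 and 16.6 CPM in TAF10KO, 10.1 to 16.4 CPM in TAF10HET, and 14.1 and 11.3 CPM in WT. Padi4 was at 1.66 and 2.34 CPM in TAF10KO, 0.62 to 1.78 CPM in TAF10HET, and 0.80 and 1.30 CPM in WT. Nkg7, a granule membrane protein of cytotoxic lymphocytes, was at 1.22 and 2.34 CPM in TAF10KO, 1.05 to 1.40 CPM in TAF10HET, and 1.42 and 1.39 CPM in WT.

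**Figure D3:**
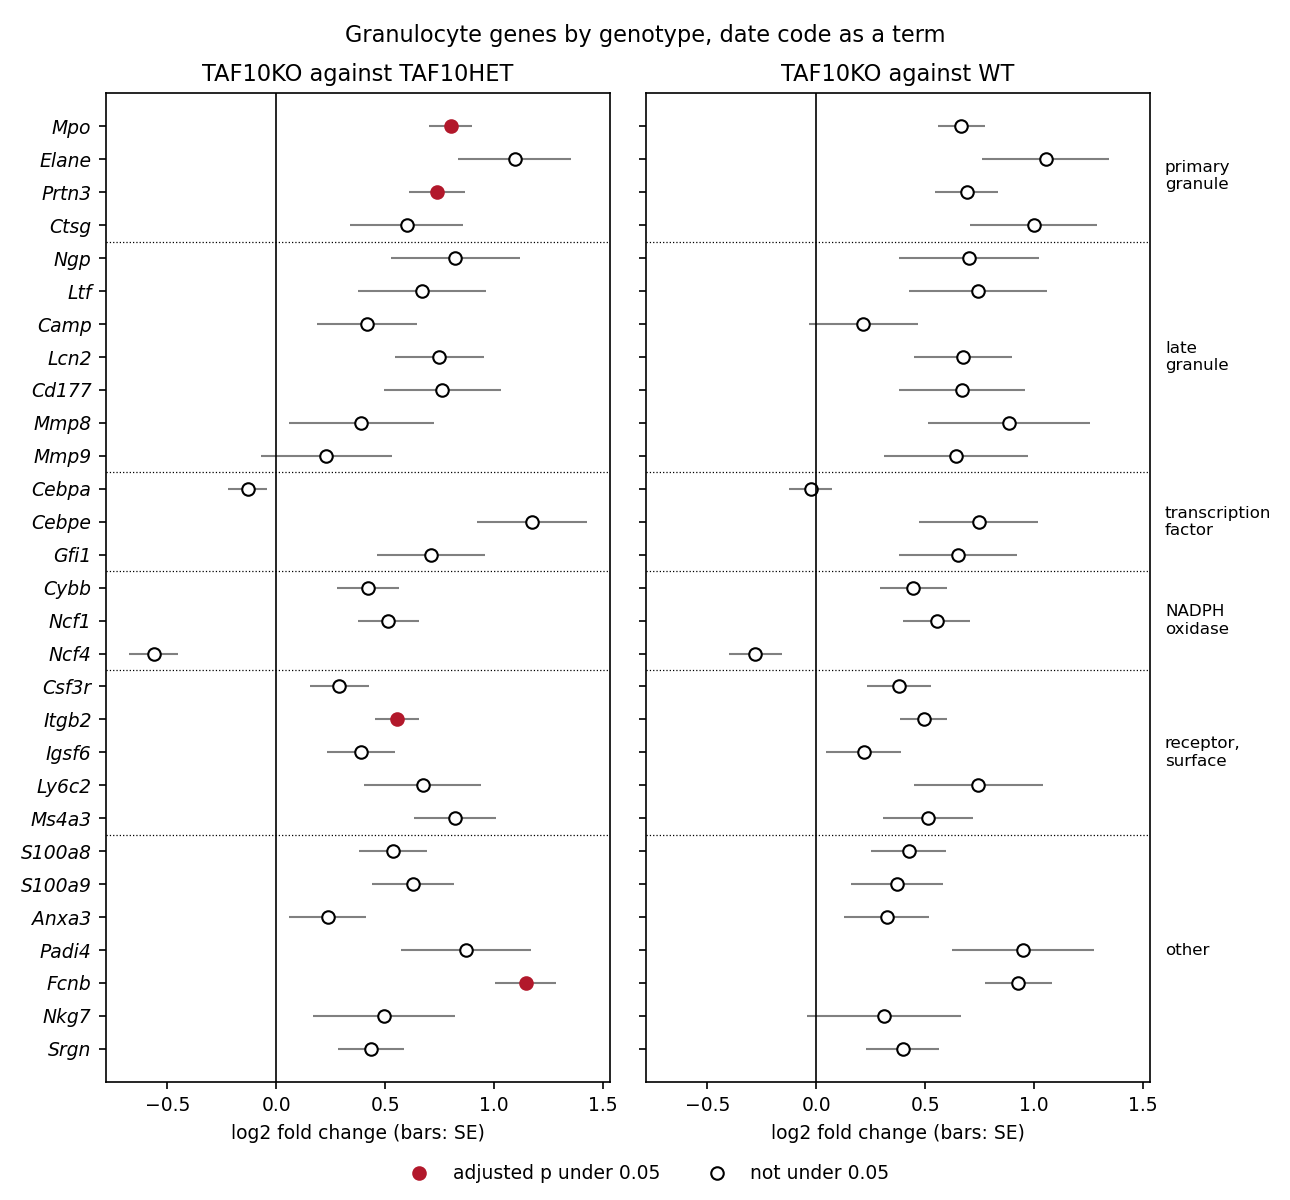
Fitted log2 fold changes of the 29 tested genes in TAF10KO against TAF10HET (left) and TAF10KO against WT (right), from the fit with the date code as a term; bars are SE, filled points have an adjusted p under 0.05, and dotted lines part the roles. In both panels 27 of 29 points lie above 0, with 4 filled on the left and 0 on the right; the panels share the TAF10KO libraries.

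The calls of this comparison depend on few libraries. Without TAF10HET replicate 3, 0 of the 29 genes and 16 of all genes were called, and without TAF10HET replicate 2, 2 of the 29. Calls over all genes thus varied with the library left out too. The median log2 fold change of the 29 ranged from 0.47, without TAF10KO replicate 2, to 0.70, without TAF10HET replicate 2. With group as the only term 0 of 29 and 0 of 15800 genes were called, and at an unadjusted p under 0.05 the fit with the date code had 20 of 29 and 2705 of 15800 genes.

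TAF10KO against WT asks the same of livers without any Cre, so the deletion and EpoCre itself cannot be told apart. None of the 29 genes passed the threshold (0.608% of all genes were called, 0.481% higher and 0.127% lower), and 18 of 29 had an unadjusted p under 0.05 in edgeR, against 2830 of all 15800 genes. DESeq2 called 4 of the 29. The median log2 fold change of the 29 was 0.64, beside 0.03 over all genes, and 27 of the 29 were above 0, beside 54.2% of all genes. The median was 0.84 for primary granule genes and 0.67 for late ones, and the late median was 0.43 without WT replicate 2. Over the 29 it was 0.74 on the second date code and 0.41 on the first. TAF10KO was higher than WT on both codes in 24 of 29 genes (34.3% of all genes), and it lay wholly above WT in 19 (15.2% of all genes) and wholly below in 0 (14.5% of all genes).

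The sizes are given for the gene of each role with the highest mean CPM, which is not always the highest per length. Mpo came closest to the threshold among the 29, with a log2 fold change of 0.67 (SE 0.109, edgeR adjusted p = 0.053). Ltf stood at 0.74 (SE 0.317, adjusted p = 0.299), and at 0.45 without WT replicate 2. Itgb2 was at 0.49 (SE 0.108, adjusted p = 0.0922) and Cybb at 0.45 (SE 0.154, adjusted p = 0.206). Ncf4, the oxidase subunit with the highest level per length, went the other way, at -0.28 (SE 0.122, adjusted p = 0.287), and Ngp, the late granule gene highest per length, was at 0.70 (SE 0.322, adjusted p = 0.327). Cebpa was at -0.03 (SE 0.099, adjusted p = 0.920), and its sign turned without WT replicate 1, to 0.04. S100a9 was at 0.37 (SE 0.210, adjusted p = 0.404), a value that rests on TAF10KO replicate 2 and was -0.04 without it. That library held S100a9 at 283 CPM and TAF10KO replicate 1 at 112 CPM, against 96.1, 170.8 and 127 CPM in TAF10HET and 113 and 173 CPM in WT. The median of the primary granule genes was 1.14 without TAF10KO replicate 1 and 0.58 without TAF10KO replicate 2. Without TAF10HET replicate 1, 4 of 29 genes were called, and calls over all genes also varied with the library left out. The median of the 29 was 0.40 without WT replicate 2. A test of whether the TAF10KO to WT difference itself differed between date codes called 0 of the 29 genes and 181 of 15800; the smallest adjusted p among the 29 was 0.145, for Mmp8.

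TAF10HET against WT gave 0 of 29 genes called (0.00633% of all genes were called, 1 gene, and it was higher). In edgeR 1 of the 29 had an unadjusted p under 0.05, Ncf4, as did 530 of all 15800 genes, and 0 of 29 were called in DESeq2. The median log2 fold change was -0.05, with 12 genes above 0 and 17 below, and it was 0.09 on the second date code and -0.22 on the first. TAF10HET lay wholly above WT in 1 gene, Ctsg (4.33% of all genes), and wholly below in 0 (4.95% of all genes). The direction of this median is not settled, since it was 0.03 with group alone.

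The date codes were compared next, with genotype as a term. On the second code 10 of the 29 genes rose and 0 fell relative to the first. The 10 are 34.5% of the 29. Of all genes 41.4% were called, 18.7% higher and 22.7% lower, so the share called in either direction was not above that of all genes, and all the calls lay on the higher side. They came from every role but the late granule genes, of which none passed in either direction. Of the 4 primary granule genes 2 rose, with a median log2 fold change of 0.59 over the 4, while 0 of the 7 tested late granule genes did, with a median of -0.03, and the difference between the lists was not tested. The primary median was 0.35 without TAF10KO replicate 1 and likewise 0.35 without TAF10KO replicate 2. The late median had no settled sign, at -0.26 without TAF10HET replicate 1 and 0.07 without WT replicate 2.

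Mpo again had the smallest adjusted p, with 141.5 ± 40.0 CPM on the second code (SD, n = 4) and 83.0 ± 28.4 CPM on the first (SD, n = 3), a log2 fold change of 0.86 (SE 0.086, edgeR adjusted p = 0.00048). Cebpe rose by 0.92 (SE 0.224, adjusted p = 0.0154), the largest fold, and Prtn3 by 0.52 (SE 0.113, adjusted p = 0.0102). S100a9 averaged 189 ± 66.6 CPM on the second code and 107 ± 9.40 CPM on the first, a rise of 0.84 (SE 0.165, adjusted p = 0.00784), with no overlap between the codes. Csf3r, the only other gene wholly higher on the second code, rose by 0.55 (SE 0.118, adjusted p = 0.00957). Among all genes, 18.8% were wholly higher on the second code and 23.6% wholly lower. Ms4a3 rose by 0.65 (SE 0.167, adjusted p = 0.0188), Fcnb by 0.66 (SE 0.125, adjusted p = 0.00563) and Padi4 by 0.81 (SE 0.266, adjusted p = 0.0434). The smallest rises were those of Ncf4 at 0.32 (SE 0.095, adjusted p = 0.030) and Itgb2 at 0.31 (SE 0.086, adjusted p = 0.0247). Cebpa was the 1 gene wholly lower on the second code, at 23.5 to 27.1 CPM there and 28.4 to 29.3 CPM on the first, and it did not pass the test. Hepatocyte markers, which moved with it, fell in 8 of 10 genes, and their part in the level of Cebpa was not tested. The median log2 fold change of the 29 was 0.24. It ranged from 0.16, without TAF10HET replicate 2, to 0.34, without WT replicate 2. With the date code as the only term 2 rose, Csf3r and S100a9, beside 35.1% of all genes called, 14.7% higher and 20.4% lower.

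**Figure D4:**
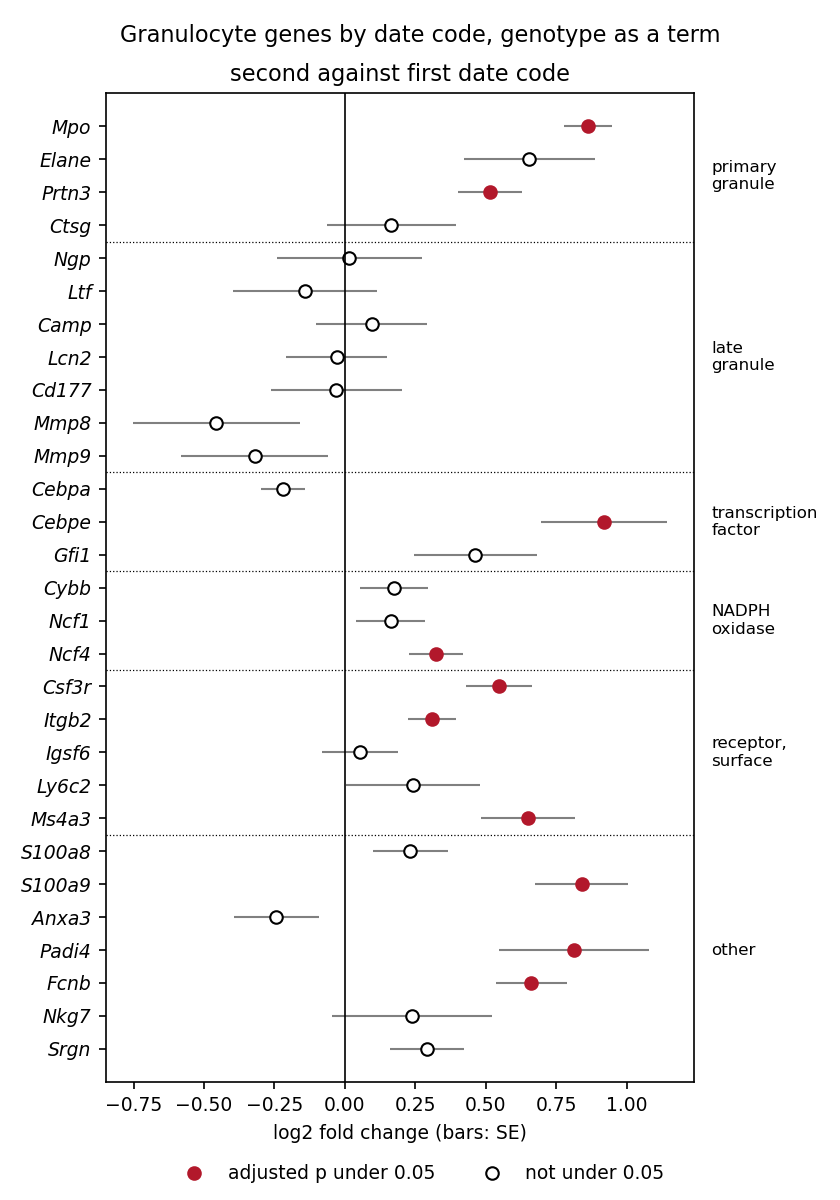
Fitted log2 fold changes of the 29 tested genes on the second date code against the first, with genotype as a term; bars are SE and filled points have an adjusted p under 0.05. The 10 filled points are all above 0, and the 7 late granule genes lie between -0.46 and 0.10 with none filled.

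Within a library, the balance of late to primary granule transcripts split by date code. The summed level of the 8 late genes divided by that of the 4 primary genes, in TPM, was 1.11 in TAF10KO replicate 2, 1.47 and 1.09 in TAF10HET replicates 2 and 3 and 1.12 in WT replicate 2, all on the second code. On the first it was 1.87 in TAF10KO replicate 1, 1.80 in TAF10HET replicate 1 and 2.25 in WT replicate 1. The ratios were 1.09 to 1.47 on the second code and 1.80 to 2.25 on the first, without overlap, and within each code the TAF10KO library stood between the others. Both sums were larger in TAF10KO than in the other libraries of its code. The primary sum was 253 TPM in TAF10KO replicate 2, against 143 and 112 TPM in TAF10HET replicates 2 and 3 and 134 TPM in WT replicate 2. The late sum was 345 TPM in TAF10KO replicate 1, against 124 TPM in TAF10HET replicate 1 and 254 TPM in WT replicate 1. No test was made of these sums, since the lists were made with results known.

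**Figure D5:**
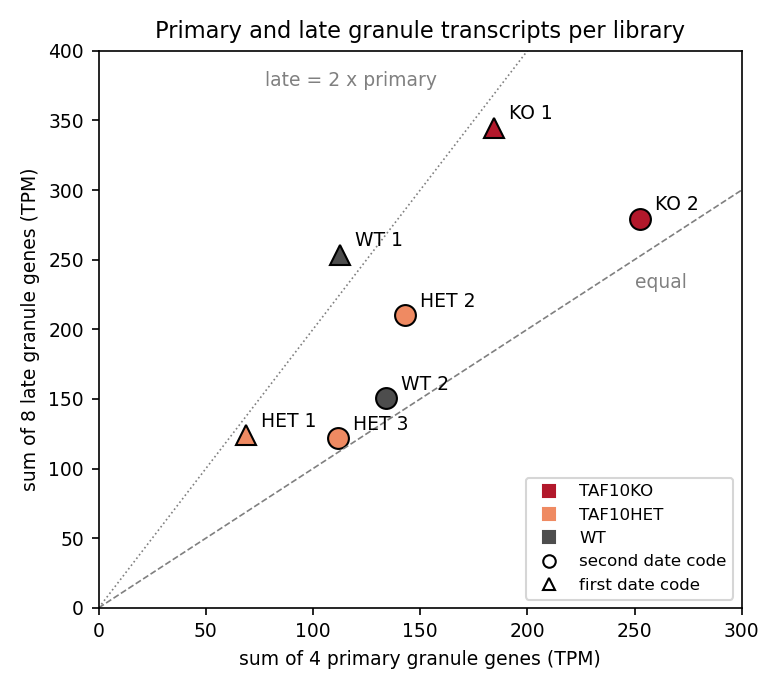
Summed TPM of the 8 late granule genes (vertical axis) against that of the 4 primary granule genes (horizontal axis), 1 point per library, coloured by genotype, with circles for the second date code and triangles for the first. The 3 triangles lie near the dotted line (late sum 2 times the primary sum), at ratios of 1.80 to 2.25, and the 4 circles lie nearer the dashed line of equal sums, at 1.09 to 1.47.

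A wider list of 41 other genes of granulocyte production and function, of which 40 were tested, was described by the same tests. In TAF10KO against TAF10HET 4 rose (10% of the 40, beside 1.15% of all genes) and 0 fell (0.456% of all genes). The median log2 fold change was 0.29. Olfm4, a granule glycoprotein of a subset of neutrophils, was at 46.0 and 59.5 CPM in TAF10KO, 18.2, 34.9 and 31.4 CPM in TAF10HET, and 28.7 and 34.7 CPM in WT (log2 fold change 1.02, SE 0.140, edgeR adjusted p = 0.0218). Cebpb, the C/EBP factor of emergency granulopoiesis, was at 5.51 and 8.13 CPM in TAF10KO, 2.90 to 3.46 CPM in TAF10HET, and 3.39 and 3.34 CPM in WT (1.16, SE 0.185, adjusted p = 0.0317). Itgam, the alpha chain that joins Itgb2 in the complement receptor Mac-1, was at 18.4 and 24.0 CPM in TAF10KO, 11.5 to 13.3 CPM in TAF10HET, and 13.4 and 12.2 CPM in WT (0.80, SE 0.131, adjusted p = 0.0351). All 3 were above every other library in both TAF10KO livers. In TAF10KO against WT 0 of 40 were called (0.608% of all genes), with a median of 0.33. The 3 with the highest mean CPM stood at 1812 ± 408 CPM in TAF10KO and 2242 ± 627 CPM in WT for Cd24a, a surface glycoprotein that erythroid cells share, at 798 ± 20.9 and 893 ± 36.2 CPM for Calr, the chaperone calreticulin, and at 145.8 ± 46.0 and 104 ± 9.12 CPM for Lyz2, lysozyme (SD, n = 2 each). In TAF10HET against WT 0 of 40 were called (0.00633% of all genes). On the second date code 13 rose and 4 fell. These are 32.5% and 10% of the 40, beside 18.7% of all genes higher and 22.7% lower. The smallest adjusted p values were those of Cxcl12, the stromal ligand that holds myeloid cells in the marrow (56.7 ± 7.84 CPM on the second code and 159 ± 13.2 on the first), Runx1 (42.0 ± 3.87 and 29.1 ± 4.39 CPM) and Rac2, the GTPase that activates the oxidase (123 ± 16.9 and 83.7 ± 17.7 CPM; SD, n = 4 and 3). Cxcl12 fell by 1.48 on the log2 scale, and Runx1 and Rac2 rose by 0.55 and 0.61. Csf3, which encodes G-CSF, was at no more than 0.08 CPM in any library.

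Markers of other cell types moved between the same libraries, and their part in the values above was not tested. Beside the counts of each list below, 1.15% of all genes rose and 0.456% fell in TAF10KO against TAF10HET. On the second date code 18.7% of all genes rose and 22.7% fell. Of 8 tested markers of eosinophils, basophils and mast cells, whose granules share Srgn with neutrophils, 1 rose in TAF10KO against TAF10HET and 6 rose on the second date code, with 0 lower in either. Their summed level was 179 and 294 CPM in TAF10KO, 63.0 to 232 CPM in TAF10HET, and 98.9 and 235 CPM in WT; Prg2, the major basic protein of eosinophils, was the most abundant. Macrophage markers ran the other way, with 1 of 11 lower in TAF10KO against TAF10HET and 7 of 11 lower on the second code. These summed to 181 and 106 CPM in TAF10KO, 153 to 228 CPM in TAF10HET, and 231 and 139.8 CPM in WT, led by Mrc1. Macrophages also express Cybb, Itgb2, Igsf6 and Ncf4. Megakaryocyte markers, led by Itgb3, summed to 963 and 1140 CPM in TAF10KO, 735 to 884 CPM in TAF10HET, and 888 and 821 CPM in WT, with 0 of 11 called between genotypes. Their median log2 fold change in TAF10KO against TAF10HET was 0.42, with 11 above 0 and 0 below. Eosinophil, basophil and mast cell markers had a median of 0.80 there, with 6 above 0 and 2 below. Macrophage markers had -0.52, with 0 above 0 and 11 below. A shift upward was thus not particular to the 29 granulocyte genes, whose median was 0.60. Endothelial markers, led by Stab2, summed to 527 and 253 CPM in TAF10KO, 201 to 372 CPM in TAF10HET, and 400 and 194 CPM in WT; 3 of 10 rose in TAF10KO against TAF10HET and 10 of 10 fell on the second code.

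Erythroid markers, led by the globin Hbb-bs, had 0 of 13 higher and 5 lower in TAF10KO against TAF10HET. In TAF10KO against WT 2 were lower (0.127% of all genes), and in TAF10HET against WT 1 was higher (0.00633% of all genes). The globin Hbb-bt stood apart in TAF10HET, at 4912 to 5407 CPM, with 1072 and 636 CPM in TAF10KO and 967 and 693 CPM in WT. On the second code 9 of 13 rose. The erythroid markers summed to 24293 and 34871 CPM in TAF10KO, 38251 to 52957 CPM in TAF10HET, and 31016 and 47537 CPM in WT. Hepatocyte markers, led by Afp, summed to 21071 and 13056 CPM in TAF10KO, 13238 to 18508 CPM in TAF10HET, and 20798 and 17230 CPM in WT, with 0 of 10 called between genotypes. Stem and early progenitor markers, led by Kit, summed to 192 and 209 CPM in TAF10KO, 174 to 205 CPM in TAF10HET, and 189 and 195 CPM in WT, with 0 of 11 called between genotypes and 3 higher and 4 lower on the second code. Lymphoid markers summed to 2.63 and 3.70 CPM in TAF10KO, 2.07 to 3.48 CPM in TAF10HET, and 2.00 and 2.46 CPM in WT, led by Il7r; 2 of 12 had enough reads to test, and none was called. Every marker had at least 1 read in some library. With globin genes left out of the library totals, the median of the 29 granulocyte genes in TAF10KO against TAF10HET was again 0.60.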

How the data were processed

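RNA sequencing read counts of 7 fetal liver libraries (2 TAF10KO, 3 TAF10HET, 2 WT) were analysed. The authors deposited whole-number counts per Ensembl gene with no normalisation. Libraries were made with TruSeq version 2, per the labels' protocols. TopHat2 2.0.8, DESeq2 and mm10 are named, per the submitters' processing notes; counting program, annotation and strand setting: not given in the sources used here. The summary lines that name no gene were left out: reads in no feature (6.81% to 10.1%), ambiguous (3.98% to 5.94%) and not unique (14.1% to 22.2%). Reads of near-identical genes can therefore be missing.

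GENCODE M21, on the same build, matched 37607 of 39017 identifiers and gave exon lengths. The test was that of edgeR 4.0.16 in R 4.3.3 (filterByExpr by group, TMM factors, robust quasi-likelihood F test, two-sided) on all 7 libraries, with group and date code as terms and Benjamini-Hochberg adjustment over 15800 genes at 0.05. CPM are scaled by library total and TMM factor. The SE of a log2 fold change is its size divided by the square root of F. Within-code differences and counts of non-overlap used log2 CPM with a prior count of 2 and CPM. Promoter windows came from RefSeq.

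The date code was taken from the titles. Deviations from the group means correlated at 0.40 to 0.74 across genes in 8 pairs of libraries with the same code and at -0.74 to -0.40 in 8 pairs with different codes; in groups of 2 they mirror each other by construction. Libraries of a group differed beyond counting noise (chi-square per degree of freedom 17.8 to 206), so none was a copy.

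The members, the gene lists, the motifs and the term for date code were chosen with earlier results of these data known. All members are given with values; fold, SE and adjusted p are printed for called members and, in TAF10KO against WT, for the member of each role with the highest mean CPM. Of the wider list, the 3 called genes with the smallest adjusted p are named, or else the 3 with the highest mean CPM. On simulated counts for TAF10KO against WT, 61 of 100 genes changed by 1 on the log2 scale were called. Of 100 genes changed by 2, 86 were called. Beside these true calls stood 25 false ones, among 15455 genes tested. False calls were thus a larger share of all calls than the adjusted p threshold is meant to allow. Calls just under the threshold are therefore less certain than their adjusted p states. No such simulation was made for TAF10KO against TAF10HET. Alternatives were other scalings, DESeq2 1.42.0, other filters, no date code, leaving out each library, non-robust dispersions and fits of only the groups compared.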

Additional observations from a re-analysis of the deposited data

Results flagged for a closer look

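Among the 4 libraries of the second date code, 2 of the 29 genes had a library far from the rest, by a Dixon test at the 95% level, which chance meets in about 1 of 20 groups. Both involved TAF10KO replicate 2. Prtn3 stood at 44.6 CPM there, and the nearest of the other 3 libraries was at 26.0 CPM, a gap of 0.856 of the whole range. Fcnb stood at 13.4 CPM there and at 6.77 CPM in the nearest library, a gap of 0.954 of the range. The other genotypes make up the other 3 libraries, so a difference between genotypes and a library that stands apart cannot be told apart in these values.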

How the results depend on the processing

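Between TAF10KO and WT, the number of called genes, 96 of all genes and 0 of the 29 granulocyte genes, was 533 and 4 with DESeq2, 1399 and 16 with no filter on low counts, and 553 and 8 with only the groups compared. It was 53 of all genes with non-robust dispersions. Of the 29, 1 was called with median-of-ratios or upper-quartile factors and 2 with a minimum of 5 CPM in 2 libraries. Between TAF10KO and TAF10HET, 254 and 4 became 662 and 9 with DESeq2, 1498 and 17 with no filter, and 26 and 0 with only the groups compared, and 2 of the 29 with non-robust dispersions. Between TAF10HET and WT, 1 gene became 9 with DESeq2, 289 with no filter, 7 with only the groups compared and 0 with non-robust dispersions. Where a count of the 29 stands alone, the total over all genes is not given beside it, so no shares are compared. The cause of these changes was not tested.

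Without the replicate block (no date code), 0 genes and 0 of the 29 were called in each genotype comparison, and the date code alone called 2 of the 29 in place of 10. The medians of the 29 were 0.63 for TAF10KO against WT and 0.59 for TAF10KO against TAF10HET without it.

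Leaving out each library gave 0 to 1282 called genes and 0 to 7 of the 29 for TAF10KO against WT, 16 to 1203 and 0 to 10 for TAF10KO against TAF10HET, 0 to 13 genes for TAF10HET against WT, and 3206 to 7303 and 5 to 10 between date codes. For TAF10KO against WT, the median of the 29 ranged over 0.40 to 0.67 that of primary granule genes over 0.58 to 1.14 and that of late ones over 0.43 to 0.96. Between date codes, the primary median ranged over 0.35 to 0.73 and the late median over -0.26 to 0.07. A pair of log2 fold changes of TAF10KO from WT turned in sign. Cebpa was 0.0143 with no filter, and -0.0958 to 0.0355 over the omissions, the highest without WT replicate 1. S100a9 was -0.0394 to 0.713, the lowest without TAF10KO replicate 2. With 2 libraries in a genotype, the lone library left by an omission was assumed to vary like the others. Chil3 could not be tested at this depth.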
